A study of Mus musculus with 15 samples.

Results

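The 10 genes described here encode stored and cytosolic proteins of neutrophils, and were followed through RNA of blood-forming cells from young and old mice. They were Mpo, Elane, Prtn3, Ctsg, Lyz2, S100a8, S100a9, Ltf, Camp and Ngp, and each was read from the array probe set annotated with that symbol alone. All 10 of 10 were measured, among 19296 genes in all, and each had 1 such probe set, so that no choice between probe sets was needed. The samples were hematopoietic stem cells (HSC) and granulocyte/macrophage progenitors (GMP), sorted from bone marrow of wild type C57Bl/6 mice. The young were aged 6 to 12 weeks and the old 22 to 30 months, which gave 5 young HSC, 3 old HSC, 4 young GMP and 3 old GMP arrays, all labelled male. Both gates took lineage-negative, c-Kit-positive cells. HSC were in addition Sca-1-positive, negative for Flk2 and CD48 and positive for CD150, while GMP were Sca-1-negative and positive for CD34 and the Fc gamma receptor. The lineage antibodies included Gr-1 and Mac1, which stain maturing neutrophils, and each population was sorted again before RNA was extracted and amplified. Whether an array held 1 mouse or a pool is not stated, so the p-values rest on array-to-array spread alone, which may be technical.

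Neutrophils load their granules in waves. Azurophil, or primary, granules form at the promyelocyte stage and hold myeloperoxidase (Mpo) and the serine proteases neutrophil elastase (Elane), proteinase 3 (Prtn3) and cathepsin G (Ctsg). Specific, or secondary, granules form later, at the myelocyte and metamyelocyte stages, and hold lactoferrin (Ltf), the cathelicidin precursor (Camp) and the cathelicidin relative neutrophilic granule protein (Ngp). Lysozyme (Lyz2) is stored in granules of every class and is also made by monocytes and macrophages. The calprotectin subunits S100a8 and S100a9 are not granule proteins but calcium-binding proteins of the neutrophil and monocyte cytosol. C/EBP factors, PU.1 (the product of Spi1), MYB and GFI1 are known regulators of these genes, with C/EBP epsilon needed for the specific granule genes.

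The 4 azurophil genes were called higher in GMP and the 3 specific granule genes were not called, so the DNA before the start of both kinds is shown. Coordinates are GRCm38.p6 and sequences are those of RefSeq, available for all 10 genes. Elane and Prtn3 are neighbours on chromosome 10, 3.14 kb apart with 0 protein-coding genes between them, as are S100a8 and S100a9 on chromosome 3, 22.6 kb apart. Ltf, Camp and Ngp all lie on chromosome 9, Camp and Ngp 570.4 kb apart with 8 protein-coding genes between them. The search used TTGCNNAA for C/EBP, GAGGAA for PU.1 and TAACNG for MYB on either strand of the 250 bases before each annotated start. No matched motifs overlap in the windows printed. Of 32851 windows of that length in the table, 9.56% held the C/EBP motif, 23.3% the PU.1 motif and 19.8% the MYB motif. Capitals mark the matches, read 5′ to 3′ on the strand of the gene. The 4 azurophil windows are chr11:87793534-87793783 (plus strand), chr10:79886062-79886311 (plus), chr10:79879417-79879666 (plus) and chr14:56102575-56102824 (minus), in the order printed.
Mpo: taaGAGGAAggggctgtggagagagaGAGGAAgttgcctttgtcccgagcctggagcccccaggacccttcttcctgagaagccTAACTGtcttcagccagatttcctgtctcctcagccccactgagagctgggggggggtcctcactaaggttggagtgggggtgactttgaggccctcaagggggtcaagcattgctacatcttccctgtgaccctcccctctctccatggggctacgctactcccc
Elane: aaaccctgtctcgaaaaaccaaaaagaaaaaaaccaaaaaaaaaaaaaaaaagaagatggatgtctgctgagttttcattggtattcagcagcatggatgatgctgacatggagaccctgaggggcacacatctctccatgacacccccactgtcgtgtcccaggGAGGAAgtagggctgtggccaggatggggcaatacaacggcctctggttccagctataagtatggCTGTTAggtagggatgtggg
Prtn3: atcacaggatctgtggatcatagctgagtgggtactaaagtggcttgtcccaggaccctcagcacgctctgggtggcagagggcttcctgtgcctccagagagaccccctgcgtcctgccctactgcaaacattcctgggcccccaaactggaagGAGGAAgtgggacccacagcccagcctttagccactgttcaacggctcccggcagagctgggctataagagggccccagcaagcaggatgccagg
Ctsg: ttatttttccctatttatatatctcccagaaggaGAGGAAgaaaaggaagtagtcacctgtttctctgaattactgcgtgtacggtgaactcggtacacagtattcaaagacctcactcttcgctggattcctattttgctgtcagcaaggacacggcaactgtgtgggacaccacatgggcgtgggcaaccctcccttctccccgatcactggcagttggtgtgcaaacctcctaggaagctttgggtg

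The windows of the specific granule genes Ltf, at chr9:111019042-111019291 (plus strand), and Ngp, at chr9:110419558-110419807 (plus), are set beside them. They held the exact C/EBP letters searched for, which the azurophil windows did not. Camp, the other specific granule gene, had no match and is not printed.
Ltf: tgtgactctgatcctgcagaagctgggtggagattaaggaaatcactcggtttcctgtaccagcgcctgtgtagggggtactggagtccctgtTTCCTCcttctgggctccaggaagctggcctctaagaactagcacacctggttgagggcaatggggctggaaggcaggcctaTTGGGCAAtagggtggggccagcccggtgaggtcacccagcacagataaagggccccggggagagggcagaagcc
Ngp: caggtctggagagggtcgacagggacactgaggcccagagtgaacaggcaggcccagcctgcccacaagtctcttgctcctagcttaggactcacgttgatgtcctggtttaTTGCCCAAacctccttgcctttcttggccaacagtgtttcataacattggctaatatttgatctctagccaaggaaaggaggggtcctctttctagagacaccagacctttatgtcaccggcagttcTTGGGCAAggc
The PU.1 motif stood in 4 of 4 azurophil windows and in 2 of the 6 others, those of S100a8 and Ltf. The C/EBP motif stood in 0 of 4 azurophil windows and in 3 of the 6 others, those of S100a9, Ltf and Ngp. The MYB motif was matched before Mpo and Elane. Lyz2 and Camp had no match to these letters in this window. In Elane and Prtn3 the PU.1 match began 85 and 95 bases before the start. These are matches of letters and not measured binding. Near matches were not counted, so a window without a match may still hold a site.

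**Figure D1:**
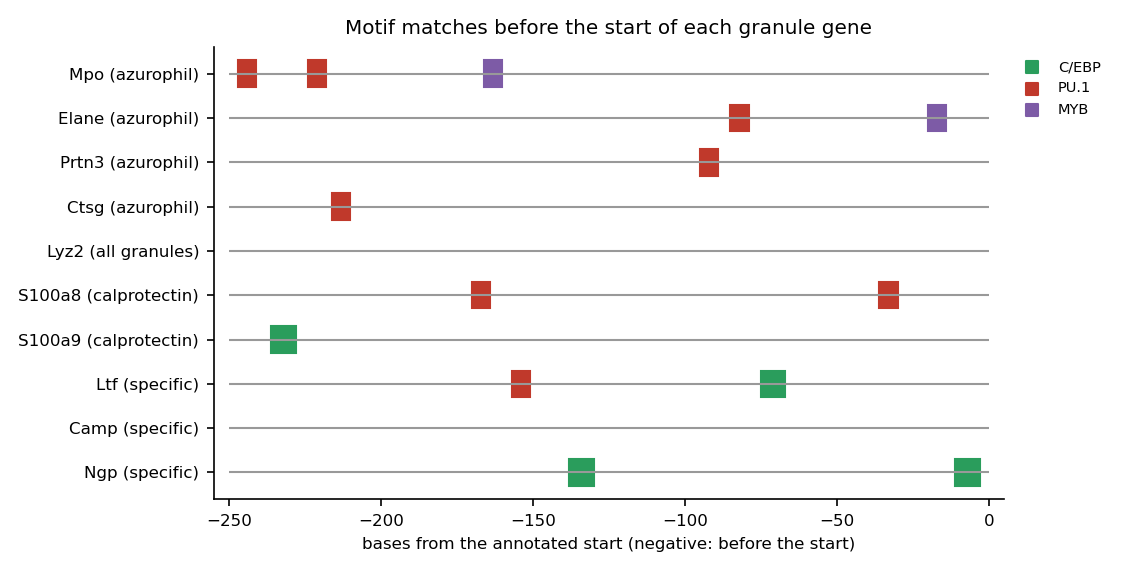
Matches to 3 short motifs in the 250 bases before the annotated start of each of the 10 genes, with bases from the start on the x axis and 1 line per gene. Red boxes, the PU.1 motif, stand on all 4 azurophil lines; green boxes, the C/EBP motif, stand only on the S100a9, Ltf and Ngp lines among these 10.

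The deposited values were log2 expression for 23309 probe sets on 15 arrays, with array medians from 7.25 to 7.42. Lower quartiles ran from 6.10 to 6.43, and a gene below them was among the dimmest on its array. No detection calls were used here. All 6 measured HSC markers, such as Mecom and Slamf1, were higher in HSC at both ages. Of 8 GMP markers 7 were higher in GMP of young mice and 5 in GMP of old mice, while Kit was higher in HSC. Before any result, 2 features of the young arrays need stating. Xist, the RNA of the inactive X chromosome of females, exceeded its top value among old arrays (5.84) by over 1 log2 on 7 of 9 young arrays, although all were labelled male. Replicate 4 of young HSC and of young GMP had the narrowest spread of their groups, with interquartile ranges of 2.21 and 2.13 log2 against 2.43 to 2.69 on the other young arrays. Both replicate 4 arrays were among the 7, and their mean of Y-linked genes was 4.94 log2 in HSC and 5.199 in GMP, against 7.12 to 8.47 on the other 5 high-Xist arrays and 8.45 to 8.80 on the remaining arrays. Values without these arrays are given for the granule genes whose call, direction or size they moved most. Without the 7 arrays each young group holds 1 array, whose spread is then assumed to equal that of the old groups. Because high Xist stood on young arrays only, what goes with it cannot be fully told apart from age in the age comparisons.

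The comparison of HSC with GMP asked where along the path from stem cell to progenitor each granule gene is present. In young mice 6 of the 10 genes passed the test, where 24.6% of all genes did in either direction, and all 6 were higher in GMP. In old mice the same 6 passed, again higher in GMP, where 22.2% of all genes passed. They were the 4 azurophil genes and both calprotectin genes, while Lyz2 and the 3 specific granule genes did not pass the test at either age. The 4 azurophil genes had a median log2 difference of -5.64 (HSC minus GMP) in young and -5.48 in old mice, where the median of all genes was -0.05 and 0.02. That of the 3 specific granule genes was -0.385 and -0.02. In sorted bulk RNA, fewer cells that express a gene and less RNA per cell cannot be told apart. The groups did not overlap for the 6 called genes at either age, which was so for 21.3% of all genes in young and 34.7% in old mice.

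**Figure D2:**
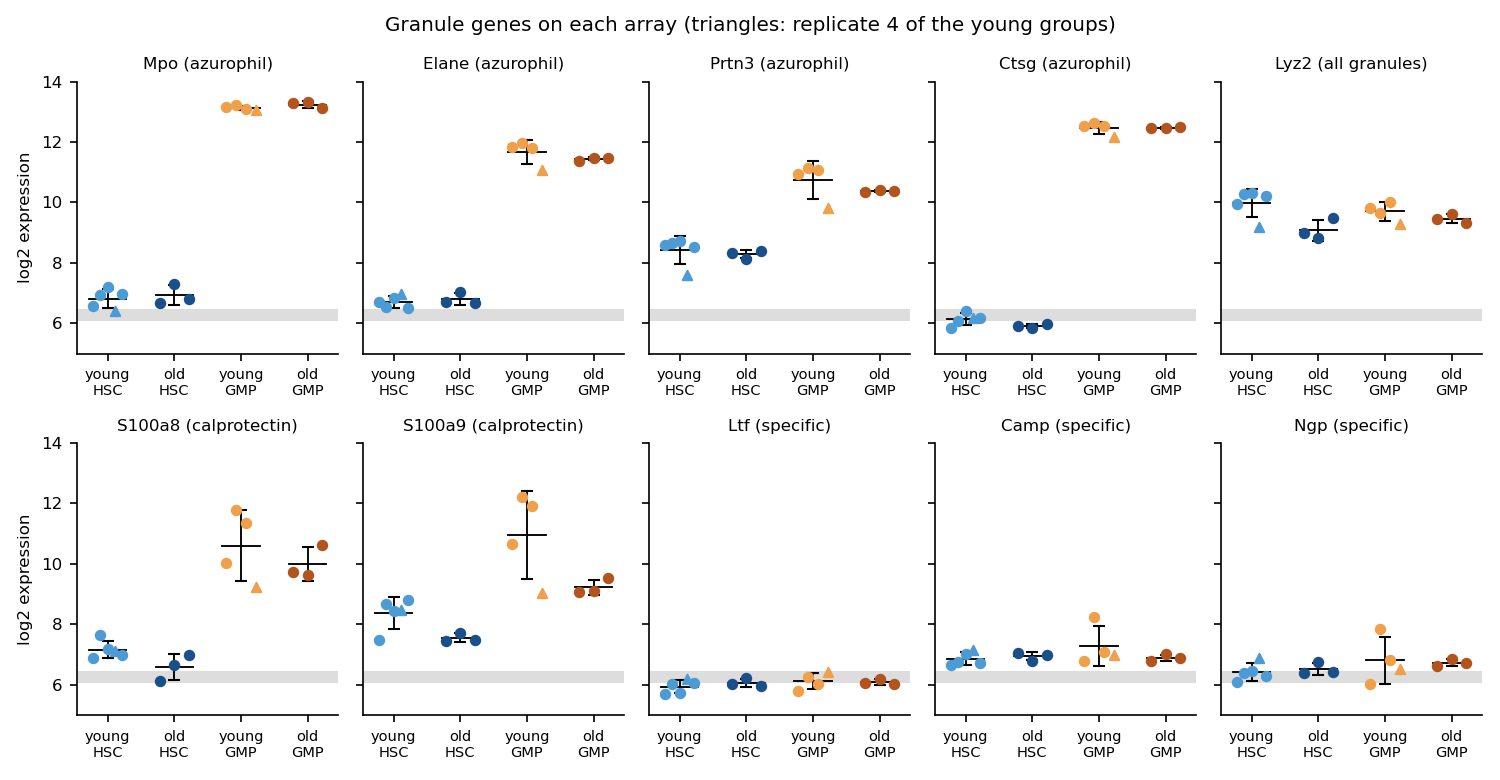
Log2 expression of each granule gene on every array, 1 panel per gene and 1 point per array, with the group mean and SD as lines and the range of the arrays' lower quartiles in grey. Mpo, Elane and Ctsg stand above 11 log2 on all GMP arrays and at or below 7.29 on all HSC arrays; Ltf stays near the grey band in all 4 groups.

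Ctsg, a chymotrypsin-like protease, was among the genes that differed most between the cell types. It was 5.83, 6.08, 6.40, 6.18 and 6.18 log2 in young HSC and 5.90, 5.84 and 5.98 in old HSC. In GMP it was 12.52, 12.62, 12.52 and 12.18 on the young and 12.45, 12.46 and 12.51 on the old arrays. It was thus among the dimmest genes of HSC and among the brightest of GMP, with no overlap. The log2 difference was -6.32 ± 0.12 (SE) in young mice, 80.1-fold, and -6.57 ± 0.14 in old mice, 94.8-fold (limma adjusted p = 2.95e-18 and 7.28e-17). At both ages the differences of Ctsg and Mpo were the lowest of all 19296 genes. In young mice their order was within the error and turned with the replicate block on the young arrays alone (Mpo -6.36, Ctsg -6.33).

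Mpo, the haem enzyme that makes hypochlorous acid, was 6.56, 6.94, 7.19, 6.40 and 6.98 log2 in young HSC and 6.67, 7.29 and 6.80 in old HSC. The GMP values were 13.17, 13.21, 13.09 and 13.05 in young and 13.28, 13.32 and 13.11 in old mice. All 7 GMP arrays thus lay between 13.05 and 13.32, and no HSC array came near them. The log2 difference was -6.32 ± 0.15 in young and -6.32 ± 0.18 in old mice, 79.7-fold at both ages (limma adjusted p = 1.81e-16 and 5.68e-15). Elane, mutated in human congenital neutropenia, was 6.70, 6.55, 6.83, 6.95 and 6.50 in young HSC and 6.69, 7.02 and 6.68 in old HSC. In GMP it was 11.83, 11.95, 11.81 and 11.06 in young and 11.39, 11.48 and 11.45 in old mice. Every GMP array stood more than 4 log2 above every HSC array. The difference was -4.96 ± 0.15 in young and -4.64 ± 0.19 in old mice, 31.1-fold and 25.0-fold (limma adjusted p = 1.08e-14 and 1.37e-12). Mpo and Elane lay below the median of all 8 HSC arrays but never below the lower quartile, while Ctsg lay below the lower quartile on 7. The folds are thus ratios to a low signal that may be background.

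Prtn3, the target of autoantibodies in human vasculitis, had a smaller difference and a brighter HSC signal. In HSC it was 8.60, 8.65, 8.73, 7.60 and 8.54 log2 on the young and 8.32, 8.14 and 8.40 on the old arrays, above the median of all 8 arrays. In GMP it was 10.95, 11.14, 11.07 and 9.81 in young and 10.34, 10.42 and 10.38 in old mice. The cell types did not overlap, and replicate 4 was lowest in both young groups. The log2 difference was -2.32 ± 0.24 in young and -2.09 ± 0.29 in old mice, 5.00-fold and 4.26-fold (limma adjusted p = 3.34e-07 and 1.95e-05). The 95% interval in young mice ran from -2.82 to -1.82. Without replicate 4 of both young groups it was -2.43 ± 0.10.

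The calprotectin genes were higher in GMP and varied among GMP arrays more than any azurophil gene in young mice. S100a8 was 6.89, 7.65, 7.17, 7.12 and 6.99 log2 in young HSC and 6.14, 6.67 and 6.98 in old HSC. In GMP it was 10.03, 11.78, 11.36 and 9.25 in young and 9.73, 9.64 and 10.63 in old mice. The cell types did not overlap, but the young GMP arrays spread over 2.53 log2. The log2 difference was -3.44 ± 0.37 in young and -3.40 ± 0.45 in old mice, 10.9-fold and 10.6-fold (limma adjusted p = 6.19e-07 and 1.17e-05). S100a9 was 7.48, 8.68, 8.44, 8.49 and 8.80 in young HSC and 7.46, 7.73 and 7.49 in old HSC. On the GMP arrays it was 10.65, 12.23, 11.91 and 9.03 in young and 9.06, 9.10 and 9.52 in old mice. Young GMP replicate 4 was as low as the old GMP arrays, and all 7 GMP arrays still stood above all 8 HSC arrays. The difference was -2.58 ± 0.43 in young mice, 5.98-fold, and -1.67 ± 0.53 in old mice, 3.18-fold (limma adjusted p = 0.000129 and 0.0267). Without replicate 4 of both young groups the difference in young mice was -3.25. The call in old mice was lost with array spread (the interquartile range) as a covariate (adjusted p = 0.0895) and with an intensity trend and robust moderation (0.0868). It was lost also without any 1 of the old HSC replicates 1, 2 and 3 (adjusted p = 0.0768, 0.0535 and 0.0631) or of the old GMP replicates 2 and 3 (0.0532 and 0.0985).

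Lyz2 was bright in all 4 groups and did not separate the cell types. It was 9.96, 10.27, 10.31, 9.18 and 10.21 log2 in young HSC and 8.97, 8.81 and 9.47 in old HSC. In GMP it was 9.83, 9.67, 10.02 and 9.29 in young and 9.46, 9.63 and 9.31 in old mice. The groups overlapped at both ages. The log2 difference was 0.29 ± 0.20 in young mice (95% interval -0.14 to 0.71) and -0.38 ± 0.25 in old mice (-0.90 to 0.14), with limma adjusted p of 0.346 and 0.345. Without young HSC replicate 4 the difference in young mice was 0.49 and was called (adjusted p = 0.0234). Lyz2 has a close copy, Lyz1, with its own probe set, and how far the Lyz2 probes read the copy was not tested.

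The specific granule genes Ltf, Camp and Ngp were dim everywhere. Ltf, the iron-binding lactoferrin, lay below the lower quartile of its array on 13 of 15 arrays and between 5.71 and 6.43 log2 throughout. Camp, whose product is cut into an antimicrobial peptide, lay below the array median on 14 of 15 arrays, and so did Ngp. On 14 arrays Camp lay between 6.66 and 7.16 and Ngp between 6.02 and 6.90. The exception for both was young GMP replicate 2, with 8.23 for Camp and 7.85 for Ngp. The difference in young mice was -0.18 for Ltf (95% interval -0.46 to 0.10), -0.42 for Camp (-0.85 to 0.01) and -0.39 for Ngp (-0.90 to 0.13). In old mice it was -0.02 (-0.36 to 0.32), 0.05 (-0.47 to 0.57) and -0.20 (-0.83 to 0.43). The limma adjusted p ran from 0.155 for Camp in young mice to 0.965 for Ltf in old mice, so no difference was detected, and intervals of this width do not show equal levels. With array weights Camp (-0.79) and Ngp (-0.83) were called in young mice (limma adjusted p = 0.0176 and 0.0306), as were 6767 of all 19296 genes. These weights were 3.75 for young GMP replicate 2, the exception for both genes, and 0.338 to 1.62 for the other young GMP arrays. Without the 7 young arrays of high Xist the differences were -0.14 and 0.07.

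**Figure D3:**
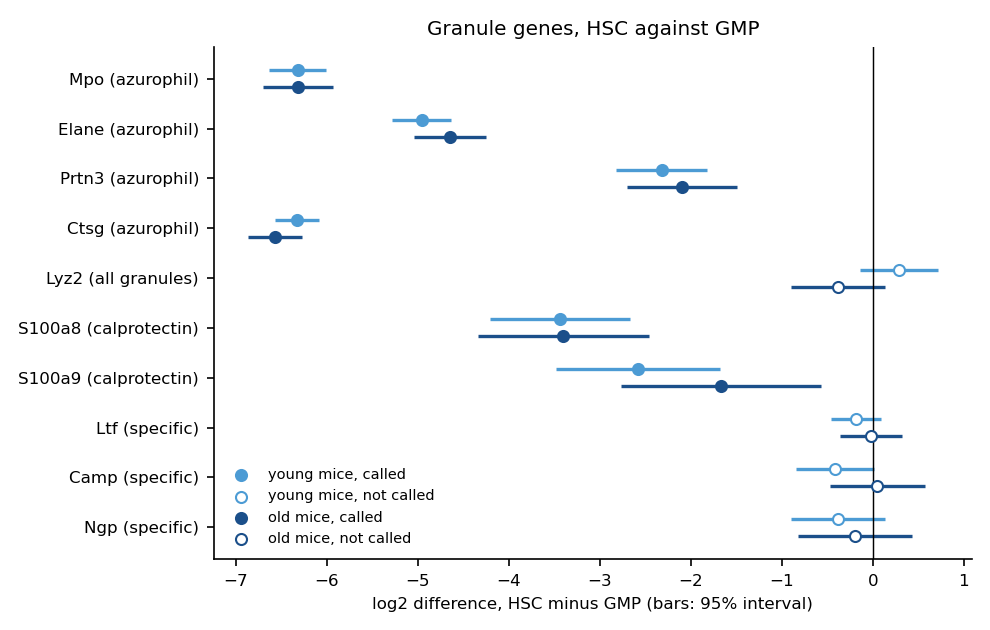
Log2 difference between HSC and GMP for each granule gene, with 95% intervals from the limma fit, in young and old mice; filled points passed the test. The 4 azurophil and both calprotectin genes lie left of 0 at both ages, from -6.57 (Ctsg, old mice) to -1.67 (S100a9, old mice), while the intervals of Lyz2, Ltf, Camp and Ngp hold 0.

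The 6 called genes kept their call without the 7 young arrays of high Xist, with differences in young mice of -6.69 for Ctsg, -6.61 for Mpo, -5.13 for Elane, -2.36 for Prtn3, -3.14 for S100a8 and -3.17 for S100a9. They kept it also without replicate 4 of both young groups.

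A list of other azurophil genes, with the progenitor gene Ms4a3 added, showed the same split in part. Of 5 measured, 3 were higher in GMP at both ages and 2, Bpi and Cd63, were not called. Bpi lay below the lower quartile on every array, while Cd63 was among the brightest genes in every group. Ms4a3, a membrane protein gene of granulocyte and monocyte progenitors, was 60.9-fold higher in young GMP (log2 -5.93 ± 0.11) and 67.7-fold in old GMP (-6.08 ± 0.13). It lay below the lower quartile on 7 of 8 HSC arrays, so these folds too are ratios to a signal that may be background. Prss57, a further serine protease gene of azurophil granules, was 6.84-fold and 5.06-fold higher, and Gusb, of the lysosomal enzyme beta-glucuronidase, 1.72-fold and 2.26-fold.

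A list of genes that activate, store or inhibit the proteases, which also held Ap3b1, Lyst, Hax1, G6pc3 and Vps45, moved in both directions. Of 11 measured, 5 were higher in GMP and 2 in HSC in young mice, and 5 and 1 in old mice. The cystatin gene Cst7 was 30.4-fold higher in young and 23.7-fold higher in old GMP. Among inhibitors of these proteases, Slpi was 7.16-fold and 4.96-fold and Serpinb1a 3.84-fold and 6.37-fold higher in GMP. A further serpin gene, Serpinb6a, was higher in HSC, 3.54-fold in young and 2.84-fold in old mice. Ctsc, the peptidase that activates all 3 proteases, and Srgn, the proteoglycan core that retains them, were named for their role after their values were seen. Neither was called, at log2 differences of -0.13 and -0.14 in young mice and -0.54 and -0.34 in old mice.

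Other genes of specific and gelatinase granules and of late neutrophil stages were in part higher in GMP. Of 17 measured, 12 were higher in GMP in young mice and 9 in old mice, and 0 were higher in HSC. Hp, encoding haptoglobin of specific granules, was 42.0-fold and 38.4-fold higher, and Cybb, the membrane subunit of the NADPH oxidase, 20.1-fold and 18.0-fold. Hp lay below the lower quartile on 7 of 8 HSC arrays and Cybb on 8 of 8, so the same limit holds for their folds. The ficolin gene Fcnb was 3.27-fold and 1.84-fold higher. Wfdc21 was 3.19-fold higher in young GMP, and in old mice its log2 difference of -0.52 was not called (limma adjusted p = 0.118). Anxa1, an annexin, was 3.02-fold and Pglyrp1, a peptidoglycan recognition protein of granules, 3.19-fold higher in old GMP. The median of the 17 was -0.88 in young and -0.56 in old mice, between that of the azurophil and that of the specific granule genes.

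Regulators of the granule programme were higher in GMP in 7 of 9 cases in young and 5 of 9 in old mice. Cebpe was 3.55-fold and 2.24-fold, Cebpa 3.33-fold and 3.73-fold, Cebpd 2.29-fold and 1.92-fold and Spi1, encoding PU.1, 1.83-fold and 3.31-fold higher. Markers of other myeloid lineages were higher in GMP too. All 6 monocyte and macrophage markers measured were higher in GMP at both ages, with list means of 8.88 to 9.23 log2 on the 7 GMP arrays and 6.40 to 6.86 on the 8 HSC arrays. Of 6 mature neutrophil markers measured (Ly6g and Stfa2l1 were not analysed here), 4 were higher in young and 3 in old GMP, with list means of 7.24 to 7.47 in GMP and 6.49 to 6.72 in HSC. The list of mast cell and basophil markers was higher in GMP in 6 of 6 cases in young and 5 of 6 in old mice (8.22 to 8.72 in GMP and 5.81 to 6.38 in HSC). Of 6 eosinophil markers 3 were higher in young and 2 in old GMP. Of 5 erythroid markers 1 was higher in young GMP and 0 in old GMP, of 5 B cell markers 0 were called at either age, and of 6 T and NK cell markers 1 was higher in HSC at both ages. Their part in the granule gene differences was not tested.

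Genes with the profile most like the azurophil genes were sought over the 15 arrays, after centring each gene. The closest to the mean of Mpo, Elane, Prtn3 and Ctsg were Hp and Ms4a3 (Pearson r = 0.998 each), then Anxa3, Clec12a and Cst7 (0.996 each). With group means removed the closest were Tmem128 (0.941), Atp5g1 (0.934), Dtymk (0.926), Pih1d1 (0.920) and Tubb6 (0.919). For the mean of Ltf, Camp and Ngp the closest were Slco4c1 (0.854), Gpc4 (0.792), Dlx6 (0.787), Fxyd2 (0.778) and Ankk1 (0.776), and with group means removed Clnk (0.880), Slco4c1 (0.860), Gm6878 (0.824), Tat (0.805) and Defb5 (0.772). The lists with and without group means thus shared Slco4c1 for the specific granule genes and no gene for the azurophil genes. These correlations are descriptions over arrays that share group, normalization and array quality.

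The comparison of old with young HSC asked whether granule genes change in stem cells with age. Of the 10 genes 1, Lyz2, passed the test, where 11.5% of all genes did, so the share of granule genes called was close to the background. The groups were free of overlap for 0 of the 10, and for 12.8% of all genes. Lyz2 fell 1.87-fold in old HSC (log2 -0.90 ± 0.22; limma adjusted p = 0.0172). The groups overlapped through young HSC replicate 4, whose 9.18 was under the 9.47 of old HSC replicate 3, and the other 4 young arrays lay above all old ones. The call was lost without old HSC replicate 1 (adjusted p = 0.0822) or 2 (0.117) and without the 7 young arrays of high Xist (-0.88, adjusted p = 0.0828). With array spread (the interquartile range) as a covariate the difference was -0.38 (adjusted p = 0.586). That spread moved with the groups, from 1.96 to 2.33 log2 in old and 2.21 to 2.69 in young HSC, and its part in the result was not tested further. Without replicate 4 of both young groups it was -1.10 (5.85e-05).

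The azurophil genes were not called with age in HSC. Their log2 differences (old minus young) were 0.11 for Mpo (95% interval -0.24 to 0.45), 0.09 for Elane (-0.26 to 0.44), -0.14 for Prtn3 (-0.68 to 0.40) and -0.23 for Ctsg (-0.49 to 0.03). Prtn3 was called without replicate 4 of both young groups (-0.34, limma adjusted p = 0.0181) and with the replicate block over all arrays (-0.40, 0.0139). Leaving out replicate 4 called 6183 of all 19296 genes, and the block 6280. That block also ties old to young arrays of the same number. Array weights called Ctsg (-0.27, limma adjusted p = 0.0184), S100a8 (-0.99, 0.0190) and S100a9 (-0.98, 0.0219), among 8966 of 19296 genes. These weights were 7.47 for old HSC replicate 1 and 0.409 and 0.487 for old HSC replicates 2 and 3. With them the old HSC group rested mostly on 1 array. In the reported model S100a8 was -0.57 (-1.41 to 0.27) and S100a9 -0.82 (-1.80 to 0.17). With the interquartile range as a covariate, Prtn3 turned to 0.59 and S100a8 to 0.03, neither called (limma adjusted p = 0.305 and 0.991). S100a9 turned to 0.08 without the 7 young arrays of high Xist, which left young HSC replicate 1 alone in its group. For S100a9 the other 4 young arrays lay above all old ones, while young HSC replicate 1, at 7.48, lay among them. The specific granule genes differed by 0.08 to 0.13. Among related genes in old HSC, the inhibitor gene Serpinb1a fell 1.76-fold, the integrin gene Itgam 1.69-fold, Anxa1 1.70-fold and Spi1 1.50-fold, as 1 of 11 protease handling genes, 2 of 17 late genes and 1 of 9 regulators. These shares are close to the 11.5% of all genes called, so they say nothing particular to the lists. In the list of other azurophil genes with Ms4a3, 5 in all, 0 were called by limma, with 2 at an unadjusted p under 0.05. The mean levels of the monocyte and mature neutrophil marker lists overlapped between old and young HSC, at 6.55 to 6.86 and 6.40 to 6.84 for monocytes and 6.52 to 6.62 and 6.49 to 6.72 for neutrophils. Those of the T and NK cell list did not overlap, at 6.56 to 6.72 in old and 6.19 to 6.37 in young HSC, with 1 of its 6 genes called higher in old HSC. Its part in the age differences was not tested.

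In GMP the same question gave 0 of 10 genes called by limma, where 0 of 19296 genes passed overall (0%). Before adjustment 870 genes lay under 0.05, S100a9 alone among the granule genes. The groups were free of overlap for 0 of the 10, and for 6.83% of all genes. It was 10.65, 12.23, 11.91 and 9.03 log2 on the young arrays and 9.06, 9.10 and 9.52 on the old ones, a log2 difference of -1.73 ± 0.49 (95% interval -2.76 to -0.70; limma adjusted p = 0.775). Of the young arrays 3 lay above all old ones, and replicate 4 lay below them. Without young GMP replicate 4 the difference was -2.37 and was called (adjusted p = 0.00479), and without the 7 young arrays of high Xist it was -1.43 and was not (0.110). With the replicate number as a block over all arrays, S100a9 was -2.01 and called (limma adjusted p = 0.0265), as were 232 of all genes. This block also ties old to young arrays of the same number. Their deviations from the group means correlated by -0.234 to -0.00669 in GMP. S100a8, the partner of S100a9, differed by -0.61 (-1.48 to 0.27), with old GMP replicate 3, at 10.63, above 2 of the 4 young arrays. It was -0.03 without the 7 young arrays of high Xist, -1.06 without replicate 4 of both young groups (neither called) and -1.33 and called with array weights (adjusted p = 0.0376).

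The azurophil genes of GMP differed with age by 0.11 for Mpo (-0.25 to 0.46), -0.22 for Elane (-0.59 to 0.15), -0.37 for Prtn3 (-0.93 to 0.20) and 0.01 for Ctsg (-0.26 to 0.29). For Elane and Prtn3 replicates 1 to 3 of young GMP lay above all old GMP arrays, and replicate 4 lay below them. Prtn3 was called lower in old GMP without replicate 4 of both young groups (-0.68, limma adjusted p = 0.00518). It was called also with the same replicate block over all arrays (-0.65, 0.0101). Array weights called Prtn3 (-0.65, limma adjusted p = 0.0205) and Elane (-0.41, 0.0482), among 832 of 19296 genes. The weights were 3.75 for young GMP replicate 2 and 0.338 for young GMP replicate 4. Lyz2 differed by -0.23 (-0.72 to 0.25), and Ltf, Camp and Ngp by -0.04, -0.39 and -0.08. Without the 7 young arrays of high Xist the last 3 turned to 0.30, 0.09 and 0.71. That left young GMP replicate 1 alone in its group, the lowest young GMP array for each of these genes. None of the other granule and regulator lists had a called gene in GMP with age: 0 of 5, 0 of 11, 0 of 17 and 0 of 9 by limma, with 1, 0, 2 and 1 genes at an unadjusted p under 0.05.

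**Figure D4:**
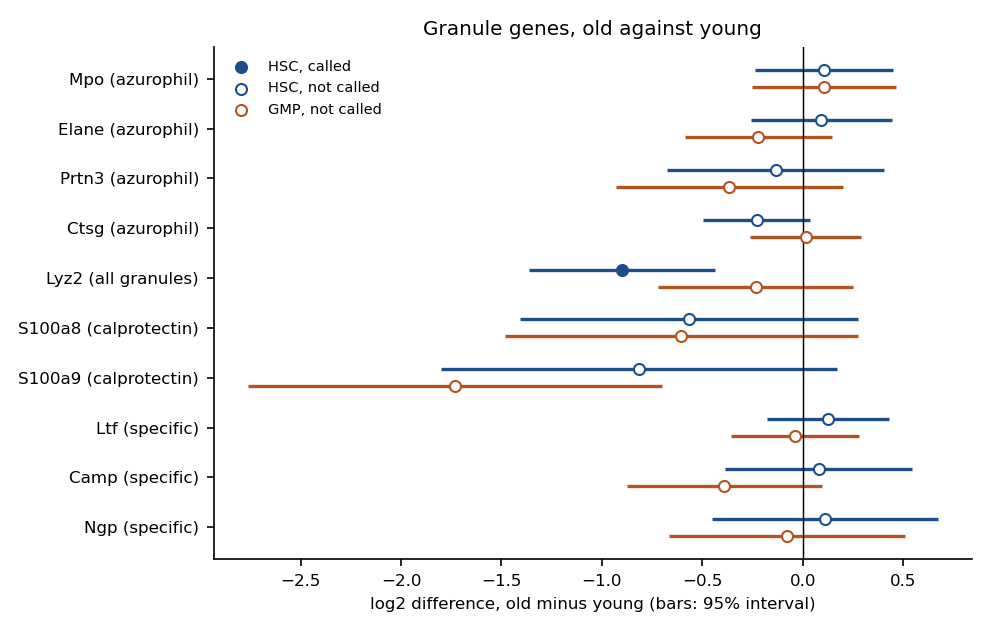
Log2 difference between old and young mice for each granule gene in HSC and in GMP, with 95% intervals from the limma fit; the filled point passed the test. Lyz2 in HSC, at -0.90, is the called value, and S100a9 in GMP, at -1.73, has the lowest estimate and the widest interval.

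Whether the age difference itself differed between HSC and GMP was tested as an interaction, which called 0 of the 10 genes by limma, against 0.0933% of all genes, with 0 members at an unadjusted p under 0.05. The difference of differences was -0.67 for Lyz2 (95% interval -1.34 to 0.00; adjusted p = 0.447) and 0.91 for S100a9 (-0.51 to 2.34; adjusted p = 0.570). Array weights called both (-0.89 and 1.54, limma adjusted p = 0.00627 and 0.0446), among 2407 of 19296 genes. The weights were 7.47 for old HSC replicate 1 and 0.409 and 0.487 for the other old HSC arrays. For the azurophil genes it ran from -0.24 for Ctsg to 0.31 for Elane. The comparisons share arrays, so their values stand side by side and are not independent.

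Within groups some of the granule genes varied together. Young GMP replicate 2 was highest of its group for S100a8, S100a9, Camp and Ngp, 1.17, 1.27, 0.95 and 1.05 log2 above the group mean. It was also highest for Mpo, Elane, Prtn3 and Ctsg, by the smaller margins of 0.08, 0.29, 0.40 and 0.16 log2 above the group mean. Among late genes looked at after these values were seen, it was highest also for Fcnb, at 9.24 against 7.79 to 8.87 on the other young GMP arrays, and for Wfdc21, at 9.38 against 8.57 to 9.15. The mean of all 17 late genes on replicate 2 was 7.86, against 7.51 to 7.81 on the other young GMP arrays. The mature neutrophil marker list was at its lowest of the group on replicate 2, at 7.24 against 7.35 to 7.41. Replicate 4 was low in the azurophil genes of young GMP, by 0.60 log2 for Elane and 0.94 for Prtn3, and in young HSC by 0.82 for Prtn3 and 0.81 for Lyz2. Over deviations from the group means on 15 arrays the correlation was 0.904 for Camp with Ngp and 0.877 for S100a8 with S100a9. It was 0.822 for Prtn3 with Lyz2 and 0.401 for Elane with Prtn3. For Mpo with Elane it was 0.131 and for Ctsg with S100a9 0.723, so the pairs did not all follow the granule classes. The arrays share normalization and amplification, so these are descriptions.

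**Figure D5:**
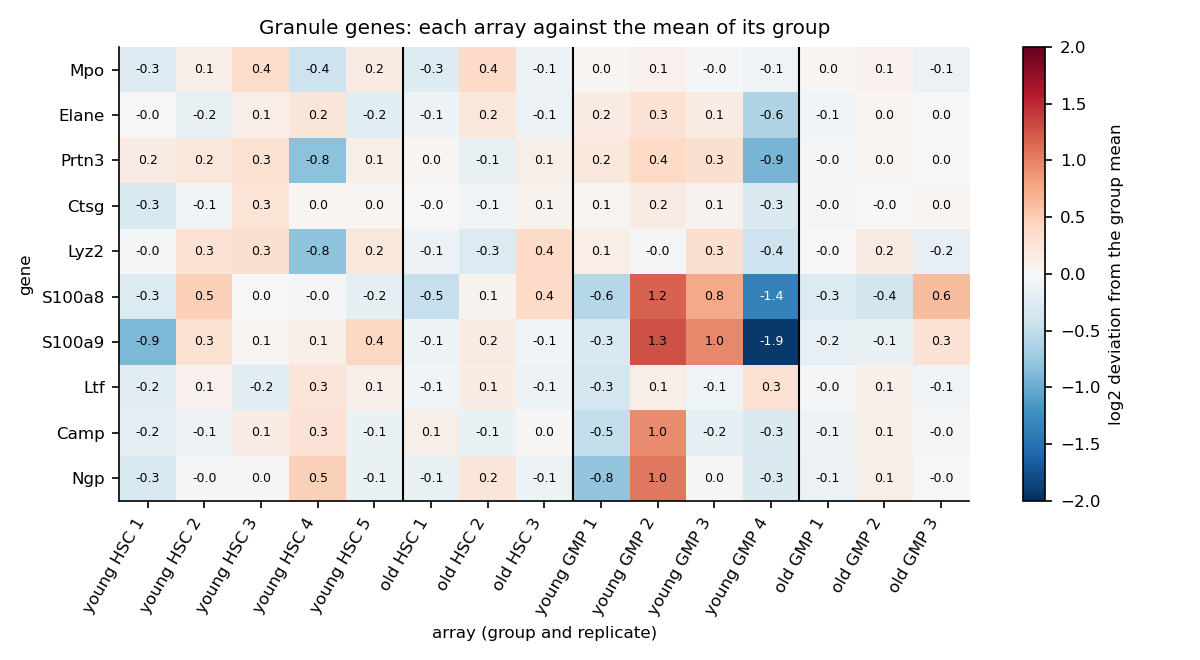
Deviation of each granule gene from the mean of its group, in log2, with arrays on the x axis and genes on the y axis. Young GMP replicate 2 is high for S100a8, S100a9, Camp and Ngp, while replicate 4 of both young groups is low for Prtn3 and Lyz2.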

How the data were processed

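RNA from 15 sorted cell samples was measured on 1-colour Mouse Gene 1.0 ST arrays. The authors deposited log2 expression values per probe set, and RMA, affy and limma are named without versions per the submitters' processing notes. The probe set filter and scan batches are not given in the sources used here. All columns were mapped to samples by their labels, and 0 were left unmapped. Of 23309 probe sets, 20728 carried 1 gene symbol in the platform annotation, 1174 several and 1407 none. The brightest single-symbol probe set stood for each of 19296 genes. One linear model over the 4 groups was fitted with limma 3.58.1 in R 4.3.3, after tests on simulated data, with Benjamini-Hochberg adjustment over all genes and calls at an adjusted p under 0.05. No detection or depth measure was used, and the number of arrays limits the precision.

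The granule genes and the other lists were chosen with earlier results of these data known. All 10 genes were named, and from each other list up to 4 called genes by size of difference, with exceptions stated where they occur. Promoter windows came from RefSeq, and protein sequences were not used here.

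Replicate numbers come from the sample titles, which state no shared litter or day. Deviations from the group means correlated by 0.287, 0.235, 0.161 and 0.525 for replicates 1 to 4 of young HSC and young GMP. They correlated by 0.05, 0.23 and 0.422 for old HSC and old GMP, and by -0.239 to 0.146 between ages. The reported model held no block, so it used no pairing. An alternative with a replicate block over all arrays tied every array of the same number, old with young as well. A further alternative used the block on the young arrays alone. The alternatives changed the normalization, filter, covariates, weights, variance model, arrays and block. The array weights were 7.47 for old HSC replicate 1, 3.75 for young GMP replicate 2 and 0.251 to 1.62 for the rest.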

Additional observations from a re-analysis of the deposited data

Results flagged for a closer look

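In 4 cases 1 array stood apart from its group by the gap to its nearest neighbour relative to the group's range (Dixon's criterion). Chance alone meets this criterion in about 1 in 20 groups. It was applied to each of the 10 genes in both young groups, and not to the old groups, which hold 3 arrays each. Elane was lowest on young GMP replicate 4, at 11.06 log2. Prtn3 was lowest on replicate 4 of young HSC, at 7.604, and of young GMP, at 9.808. S100a9 was lowest on young HSC replicate 1, at 7.484. Of these arrays, both replicate 4 arrays also had the narrowest interquartile range of their groups, and their part in these values was not tested.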

How the results depend on the processing

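Over 27 settings, 1238 of 1270 alternative values of single granule genes kept their side of the threshold, 11 lost a call, 21 gained one and 0 called values changed sign, while 63 changed sign with neither value called. The count of granule genes called between HSC and GMP was 6 to 9 in young and 5 to 7 in old mice. Called with age in HSC (1 gene) were 0 with the interquartile range as a covariate and without the young arrays of high Xist, 2 with the replicate block and without replicate 4 of both young groups, and 4 with array weights. Leaving out 1 array gave 0 to 1, with 0 without old HSC replicate 1 or 2. The same comparison called 105 of all 19296 genes with the interquartile range as a covariate and 6280 with the replicate block. It called 6183 without replicate 4 of both young groups and 8966 with array weights. In GMP (0 genes) array weights gave 4, the replicate block 2 and leaving out replicate 4 of both young groups 2. Of all genes these settings called 832, 232 and 188. Leaving out 1 array gave 0 to 1, with 1 (S100a9) without young GMP replicate 4. For the difference between the age effects (0 genes) array weights gave 2, and 2407 of all genes. With the replicate block on young arrays alone, chosen after seeing the data, 6 genes were called between HSC and GMP, with -6.36 for Mpo. Of all genes, the settings called 1770 to 6767 between young HSC and GMP (4741 as reported), 3272 to 7494 in old mice (4292), 22 to 8966 with age in HSC (2213), 0 to 832 with age in GMP (0) and 0 to 2407 for the difference of age effects (18). Filters on dim probe sets left 7 of the 10 genes, without Ltf, Camp and Ngp, which lay below the array median on 14 or more of 15 arrays. Fitting only the compared groups was not run for the difference of age effects, which needs all 4. The causes of these changes were not tested.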
